A study of Mus musculus with 64 samples.

Results

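The glycolytic enzymes followed here were the 10 genes Hk2, Pfkp, Aldoa, Tpi1, Gapdh, Pgk1, Pgam1, Eno1, Pkm and Ldha, taken by symbol out of the 25239 genes of the batch-corrected count table. All 10 passed the filter on low counts, as did 13584 genes in all. The study asked how age and sex shape the response of retinal microglia, the resident macrophages of the retina, to an intravitreal injection of adeno-associated virus serotype 2 (AAV2). Every mouse, naive controls included, was Cx3cr1CreER:R26-tdTomato +/- on the C57BL/6J background and had been given tamoxifen eye drops, which switch on the red tdTomato reporter in cells that express Cx3cr1. The injected groups had received 1e10 genome copies per eye of a vector that carries a CMV promoter, a WPRE and an inhibitory sequence against the DNA sensor TLR9 but no transgene, and their retinas were taken at day 12 or day 28, at 3, 9 or 18 months of age and from both sexes. Naive mice had no injection, so the virus and the injection itself cannot be told apart. The Cx3cr1 promoter is also used by other macrophages and by monocytes, and the washout that followed tamoxifen was meant to leave the label mainly in microglia. Each library came from 600 bright tdTomato cells sorted from a single retina. The 62 libraries came from 7 naive, 8 day 12 and 7 day 28 mice at 3 months, 5, 7 and 7 at 9 months, and 7, 7 and 7 at 18 months, with 2 to 4 libraries for each sex.

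Glycolysis splits glucose into pyruvate in the cytoplasm and yields ATP and NADH without oxygen. Macrophages and microglia that become activated commonly raise this pathway, whose intermediates also feed the pentose phosphate route and the synthesis of glycerol and amino acids. Many of its enzymes are classical targets of the hypoxia-inducible factor HIF-1, whose regulated subunit is encoded by Hif1a, and of Myc. In order along the pathway, Hk2 (hexokinase 2) traps glucose by phosphorylation, Pfkp (the platelet type of phosphofructokinase) commits it, Aldoa (aldolase A) cleaves the sugar, and Tpi1 (triosephosphate isomerase) interconverts the 2 products. Gapdh, Pgk1, Pgam1 and Eno1 carry the triose through to phosphoenolpyruvate, Pkm (pyruvate kinase) makes pyruvate, and Ldha (lactate dehydrogenase A) turns pyruvate into lactate and restores NAD+. In the mouse assembly GRCm38.p6 (RefSeq), Hk2 lies at chr6:82725025-82774454, Tpi1 at chr6:124810586-124814158 and Gapdh at chr6:125161852-125166467, all on the minus strand. Aldoa lies at chr7:126795234-126800994 (minus strand), Ldha at chr7:46842274-46855627, Pkm at chr9:59656576-59679372 and Eno1 at chr4:150236708-150248879 (plus strand). Pfkp is at chr13:6579874-6649060 on the minus strand, Pgk1 at chrX:106187100-106203699 and Pgam1 at chr19:41911871-41918665 on the plus strand.

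The promoters of 4 members are printed as examples of the contrast found at day 12, when Tpi1 and Pkm rose at all 3 ages, Ldha at 9 and 18 months, and Hk2 passed the test at no age. Each window runs from 250 bases before to 50 bases after the RefSeq transcription start (GRCm38.p6), 5′ to 3′ on the gene's own strand. Capitals mark the letters ACGTG or GCGTG, on either strand, which are the core of the element that HIF-1 recognises. CACGTG is the E-box of Myc and its relatives, and each copy counts as 2 copies of ACGTG because it reads the same on both strands.
Hk2 (chr6:82774405-82774704, - strand): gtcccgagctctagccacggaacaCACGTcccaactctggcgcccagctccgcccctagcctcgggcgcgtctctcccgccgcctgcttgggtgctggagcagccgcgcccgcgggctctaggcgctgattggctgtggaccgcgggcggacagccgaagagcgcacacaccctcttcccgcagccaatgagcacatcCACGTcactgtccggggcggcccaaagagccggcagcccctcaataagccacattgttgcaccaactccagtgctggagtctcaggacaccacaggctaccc
Tpi1 (chr6:124814109-124814408, - strand): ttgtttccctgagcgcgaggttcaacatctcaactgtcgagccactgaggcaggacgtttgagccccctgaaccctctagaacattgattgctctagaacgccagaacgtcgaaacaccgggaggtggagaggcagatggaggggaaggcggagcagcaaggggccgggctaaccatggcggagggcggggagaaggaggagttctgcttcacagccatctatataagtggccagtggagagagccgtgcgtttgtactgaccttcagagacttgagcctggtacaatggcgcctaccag
Pkm (chr9:59656977-59657276, + strand): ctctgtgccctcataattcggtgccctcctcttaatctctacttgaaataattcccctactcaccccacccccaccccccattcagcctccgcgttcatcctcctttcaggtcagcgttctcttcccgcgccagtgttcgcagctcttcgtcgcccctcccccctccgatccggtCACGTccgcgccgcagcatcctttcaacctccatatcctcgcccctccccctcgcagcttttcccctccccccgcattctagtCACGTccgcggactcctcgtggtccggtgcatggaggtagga
Ldha (chr7:46845554-46845853, + strand): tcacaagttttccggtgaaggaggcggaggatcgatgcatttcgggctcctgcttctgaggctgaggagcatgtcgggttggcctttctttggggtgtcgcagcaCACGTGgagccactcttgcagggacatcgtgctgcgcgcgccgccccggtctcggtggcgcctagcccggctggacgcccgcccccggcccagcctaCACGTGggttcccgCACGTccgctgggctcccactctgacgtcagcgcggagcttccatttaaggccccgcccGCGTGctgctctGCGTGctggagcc

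The Hk2 window held 2 copies of ACGTG, the Tpi1 window held 0 copies of either motif, the second Pkm window held 2 copies of ACGTG (the first, not printed, held 0 of either motif), and the first Ldha window held 7 motif copies, with 2 CACGTG among them (the second, not printed, held 2 copies of GCGTG). The other members held between 1 and 4 copies in at least 1 window, so that 9 of the 10 genes and 13 of their 16 windows (81.2%) held either motif. Among all 32851 RefSeq promoter windows of the same length, 43.8% held either motif, 20.6% held 2 or more and 8.93% held 3 or more, while 7.15% held CACGTG. Windows of 1 gene can overlap, as those of Aldoa and Eno1 do. For Pkm and Ldha the printed window is the one with more copies. Aldoa and Pgk1, which also rose at all 3 ages, held at most 1 and 2 copies in a window and are not printed. These matches describe letters only, and Hk2 held as many as the second Pkm window.

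Depth ranged from 1468478 to 9836173 counts per library (median 4188992), and 10505 to 14247 genes were detected. Levels are given as CPM, the count scaled to the library's size after TMM normalisation, and the median count per library was 2369 for Aldoa and 1351 for Hk2 but only 59 for Gapdh, 52 for Pfkp, 36 for Pgk1 and 22.5 for Pgam1. Of the distinct 75-base stretches of the GENCODE transcripts, the length of 1 read, 67.5% of those of Pgk1, 55.5% of Gapdh, 44.3% of Eno1 and 40.6% of Pgam1 also occur in other genes, mostly pseudogenes. How the counting treated such reads is not given in the sources used here, so the levels of these 4 genes are uncertain. In all, 3 libraries stood apart with under 12000 genes detected, namely the 3-month-old male day 12 replicate 2 (11087), the 9-month-old female naive replicate 1 (10505) and the 18-month-old female naive replicate 1 (11045). The 18-month-old male day 28 replicate 4 is named day 28 by its title but day 12 by its time-point label, and was kept at day 28. Libraries are separate retinas, so the p-values measure the spread between these retinas.

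The batch correction moved Hk2 against the rest. In the 27 libraries of the first collection day the corrected Hk2 count was 1.82 times the uncorrected one (median), and in the 35 of the second day it was 0.628 times. The other 9 members were lowered in the first day's libraries, with medians from 0.641 to 0.789, and raised in the second day's, from 1.25 to 1.5. Every group held libraries of both days, and differences within each day are given beside the results. Split by sex, some groups had a single library on a collection day, and the within-day values of those groups rest in part on it.

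At day 12, 5, 5 and 8 of the 10 enzymes were higher than in naive retinas at 3, 9 and 18 months. Aldoa, Tpi1, Pgk1 and Pkm were higher at all 3 ages, Pfkp and Ldha at 2 ages each, and Gapdh and Eno1 at 18 months, whereas Hk2 and Pgam1 passed the test at no age. With edgeR's quasi-likelihood test and an adjusted p under 0.05 over all genes, 0 members were lower. The same test called 9.42%, 10.5% and 9.53% of all genes higher, and 982, 1075 and 818 of 13584 genes lower. The median log2 fold change of the 10 members was 0.74, 0.68 and 0.94 at 3, 9 and 18 months, against -0.000505, 0.06 and 0.03 over all genes tested. In sorted pools such as these, fewer cells of a type and less RNA per cell cannot be told apart. The 8 microglia markers were detected in all groups, and 6, 8 and 8 of them were lower at day 12. Their summed level was 27678 to 44922 CPM in naive and 12684 to 19253 CPM in day 12 libraries at 3 months, 26614 to 46182 and 8169 to 26800.1 at 9 months, and 26500.3 to 39807 and 11693 to 31725 at 18 months. Of 7 T cell genes tested, 6 were higher at day 12 at each age, with a summed level of 0 to 30.7 CPM in naive and 57.6 to 335 at day 12 at 3 months, 0 to 6.03 and 50.3 to 158 at 9 months, and 0 to 156 and 1.57 to 383 at 18 months. Cd3e, which defines T cells, was at 0 in 5 of 7, 5 of 5 and 5 of 7 naive libraries at 3, 9 and 18 months. Genes of dividing cells were higher in 0, 5 and 5 of 6 cases, and their sums, at most 112, 70.4 and 102 CPM in naive libraries, reached 166, 619 and 918 CPM at day 12. Of the other lists, 1, 2 and 3 of 5 genes of monocytes and neutrophils and 2, 1 and 1 of 7 genes of Müller glia and astrocytes were higher (0, 2 and 2 lower), 0, 8 and 1 of 12 photoreceptor genes were lower, 0 of 3 B cell genes passed and 1 of 7 genes of the dissociation response was higher at each age, while Gfap, an astrocyte gene, was at 0 in all naive libraries. The summed level of all 8 genes of Müller glia and astrocytes was 4668 to 9856 CPM in naive and 15289 to 35985 CPM in day 12 libraries at 3 months, 4515 to 18002 and 2042 to 27327 at 9 months, and 3315 to 7916 and 2074 to 43385 at 18 months. At 3 months most of that sum was Apoe, which microglia also make, with a median of 5704 CPM in naive and 22896 CPM in day 12 libraries. The part of these cells in the glycolytic changes was not tested. Leaving out the 3 libraries with few genes gave 5, 5 and 9 members called.

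**Figure D1:**
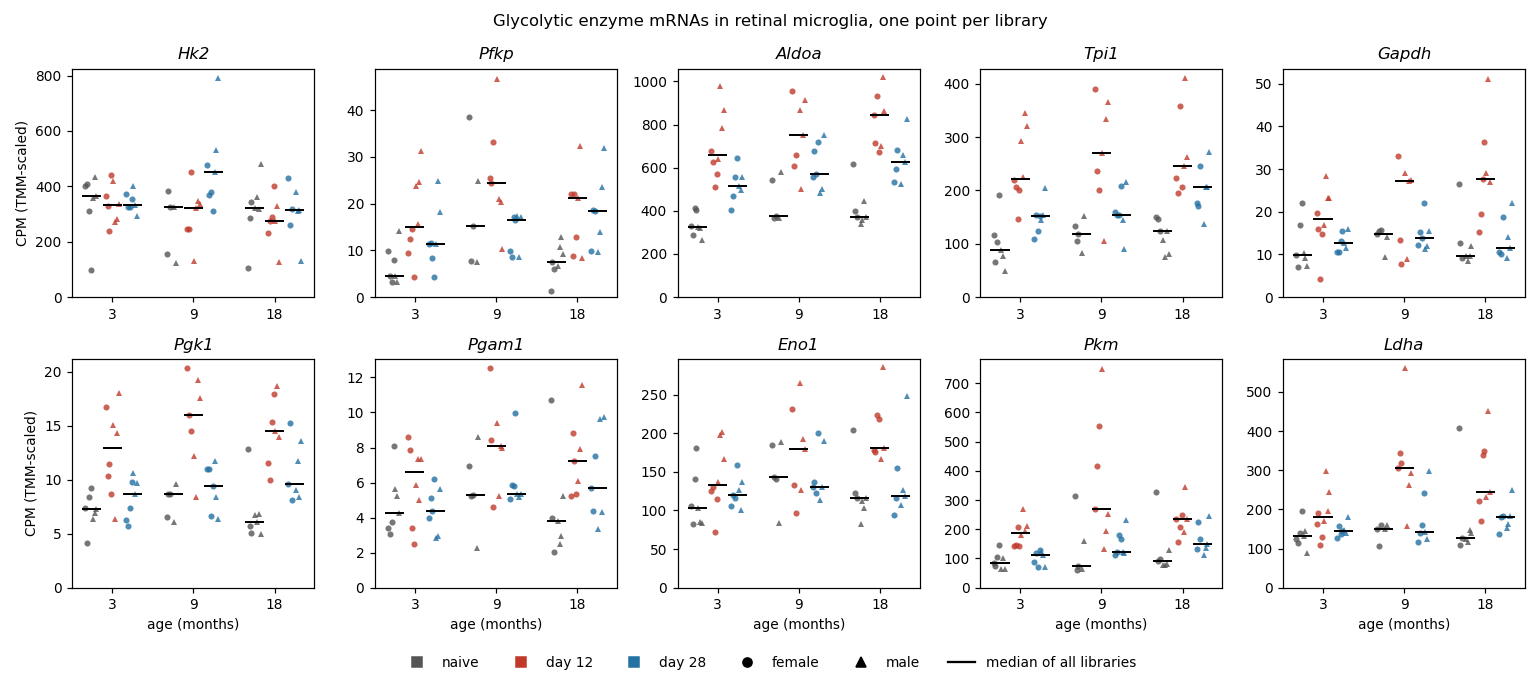
Level of each of the 10 enzyme mRNAs in CPM (y axis) in each library, by age in months (x axis) and by day (grey naive, red day 12, blue day 28), with circles for females, triangles for males and a bar at the group median. Aldoa at day 12 stands clear of the naive libraries at 3 and 18 months, and Hk2 overlaps throughout.

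Hk2 catalyses the first step and its level was not seen to differ at day 12. At 3 months, Hk2 measured 98.6 to 435 (median 367) CPM in the 7 naive libraries, 239 to 441 (median 333) in the 8 day 12 libraries and 292 to 399 (median 332) in the 7 day 28 libraries. At 9 months, Hk2 measured 123, 156, 325, 325 and 382 CPM in the 5 naive libraries, 131 to 453 (median 323) in the 7 day 12 libraries and 311 to 791 (median 452) in the 7 day 28 libraries. At 18 months, Hk2 measured 104 to 479 (median 323) CPM in the 7 naive libraries, 125 to 400.3 (median 275) in the 7 day 12 libraries and 129.9 to 429.7 (median 314) in the 7 day 28 libraries. Naive and day 12 libraries overlapped at each age, with 1 of 8, 1 of 7 and 0 of 7 day 12 libraries above every naive library of their age. The log2 fold change at day 12 was -0.03 ± 0.25 (SE) at 3 months, with a 95% interval of -0.54 to 0.47, 0.24 ± 0.29 (-0.35 to 0.82) at 9 months and -0.16 ± 0.26 (-0.69 to 0.37) at 18 months, and the edgeR adjusted p was 0.972, 0.641 and 0.764. By collection day (first, second), the day 12 difference of Hk2 was -0.13 and 0.24 at 3 months, 0.19 and 0.74 at 9 months and 0.50 and -0.33 at 18 months (log2). None of the fits that left out 1 library brought Hk2 past the threshold at day 12.

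Pfkp, the committing step, was raised at day 12 at 3 and 18 months, from few counts. Pfkp at 3 months gave 3.26 to 14.1 (median 4.58) CPM in naive retinas (n = 7), 4.2 to 31.2 (median 15.1) at day 12 (n = 8) and 4.38 to 24.8 (median 11.3) at day 28 (n = 7). Pfkp at 9 months gave 7.53, 7.67, 15.2, 24.9 and 38.4 CPM in naive retinas (n = 5), 10.4 to 46.6 (median 24.5) at day 12 (n = 7) and 8.62 to 17.4 (median 16.4) at day 28 (n = 7). Pfkp at 18 months gave 1.24 to 12.9 (median 7.45) CPM in naive retinas (n = 7), 8.34 to 32.3 (median 21.1) at day 12 (n = 7) and 9.55 to 31.9 (median 18.5) at day 28 (n = 7). The groups overlapped at all ages, and 5 of 8, 1 of 7 and 4 of 7 day 12 libraries lay above every naive one at 3, 9 and 18 months. The day 12 level was 2.31-fold that of naive mice at 3 months (log2 1.21 ± 0.39, edgeR adjusted p = 0.0215) and 2.59-fold at 18 months (log2 1.37 ± 0.40, adjusted p = 0.0112). At 9 months the log2 difference was 0.51 ± 0.42 and missed the threshold (adjusted p = 0.441). Taken within the first and then the second collection day, the day 12 change of Pfkp was 1.32 and 1.40 at 3 months, 0.68 and 0.06 at 9 months and 2.42 and 1.14 at 18 months (log2). The call at 3 months was lost without the male naive replicates 1 and 2 or the female day 12 replicate 3 (adjusted p 0.0515 to 0.0907), and that at 18 months without the male day 12 replicate 2 (adjusted p 0.0602).

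Aldoa, which cleaves the sugar, rose at all 3 ages. The 3-month-old Aldoa levels were 264 to 414 (median 322) CPM in naive mice (n = 7), 509.6 to 977 (median 658) at day 12 (n = 8) and 404 to 644 (median 515) at day 28 (n = 7). The 9-month-old Aldoa levels were 368, 369, 376, 544 and 579 CPM in naive mice (n = 5), 502 to 958 (median 749) at day 12 (n = 7) and 485 to 752 (median 569) at day 28 (n = 7). The 18-month-old Aldoa levels were 338 to 616 (median 372) CPM in naive mice (n = 7), 671 to 1022 (median 842) at day 12 (n = 7) and 523 to 827 (median 626) at day 28 (n = 7). Every day 12 library lay above every naive library at 3 and at 18 months, which held for 3.79% and 1.21% of all genes in that direction, and 6 of 7 day 12 libraries did so at 9 months. The day 12 level was 2.12-fold the naive level at 3 months (log2 1.08 ± 0.16, edgeR adjusted p = 4.76e-07), 1.66-fold at 9 months (log2 0.73 ± 0.18, adjusted p = 0.00223) and 1.97-fold at 18 months (log2 0.98 ± 0.16, adjusted p = 7.73e-06). Within the first and second collection days, the day 12 difference of Aldoa was 1.24 and 1.03 at 3 months, 0.89 and 0.74 at 9 months and 0.68 and 1.14 at 18 months (log2). No single library decided a call of Aldoa at day 12.

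Tpi1, which interconverts the 2 triose phosphates, rose about as much at each age. At 3 months, Tpi1 measured 48.1 to 191 (median 88.5) CPM in the 7 naive libraries, 146 to 346 (median 222) in the 8 day 12 libraries and 109.6 to 204 (median 151) in the 7 day 28 libraries. At 9 months, Tpi1 measured 83.2, 105, 118, 133 and 152 CPM in the 5 naive libraries, 105 to 389 (median 269.7) in the 7 day 12 libraries and 89.9 to 217 (median 154) in the 7 day 28 libraries. At 18 months, Tpi1 measured 75 to 149.8 (median 123) CPM in the 7 naive libraries, 196 to 410.3 (median 245) in the 7 day 12 libraries and 137 to 272 (median 205) in the 7 day 28 libraries. At 18 months no naive library reached a day 12 library, which for higher levels held for 1.21% of all genes, and 7 of 8 and 6 of 7 day 12 libraries lay above all naive ones at 3 and 9 months. The increase was 2.59-fold (log2 1.38 ± 0.22, edgeR adjusted p = 3.58e-06), 2.3-fold (log2 1.20 ± 0.25, adjusted p = 0.000367) and 2.36-fold (log2 1.24 ± 0.22, adjusted p = 4.34e-05) at 3, 9 and 18 months. By collection day (first, second), the day 12 difference of Tpi1 was 1.5 and 1.35 at 3 months, 1.54 and 1.14 at 9 months and 0.97 and 1.40 at 18 months (log2). All fits that left out 1 library kept the 3 calls.

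Gapdh, which makes NADH, was counted at few reads. Gapdh at 3 months gave 6.97 to 22.1 (median 9.94) CPM in naive retinas (n = 7), 4.11 to 28.3 (median 18.2) at day 12 (n = 8) and 10.5 to 16 (median 12.7) at day 28 (n = 7). Gapdh at 9 months gave 9.36, 14.1, 14.8, 15.5 and 15.7 CPM in naive retinas (n = 5), 7.77 to 33 (median 27.3) at day 12 (n = 7) and 11.4 to 22.1 (median 13.8) at day 28 (n = 7). Gapdh at 18 months gave 8.54 to 26.4 (median 9.55) CPM in naive retinas (n = 7), 15.2 to 51.2 (median 27.6) at day 12 (n = 7) and 9.07 to 22 (median 11.4) at day 28 (n = 7). Naive and day 12 values overlapped, and 1 day 12 library at 3 months and 2 at 9 months lay below every naive one. It was 2.37-fold higher at day 12 at 18 months (log2 1.24 ± 0.31, edgeR adjusted p = 0.00308). The differences at 3 and 9 months were 0.65 ± 0.30 and 0.62 ± 0.34 (log2, adjusted p = 0.144 and 0.214). Taken within the first and then the second collection day, the day 12 change of Gapdh was 1.19 and 0.38 at 3 months, 1.20 and 0.22 at 9 months and 0.55 and 1.72 at 18 months (log2).

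Pgk1, the first ATP-yielding step, was raised at all 3 ages, also from few counts. The 3-month-old Pgk1 levels were 4.14 to 9.24 (median 7.24) CPM in naive mice (n = 7), 6.36 to 18 (median 12.9) at day 12 (n = 8) and 5.72 to 10.6 (median 8.68) at day 28 (n = 7). The 9-month-old Pgk1 levels were 6.1, 6.55, 8.67, 8.69 and 9.63 CPM in naive mice (n = 5), 8.35 to 20.3 (median 16) at day 12 (n = 7) and 6.37 to 11.7 (median 9.45) at day 28 (n = 7). The 18-month-old Pgk1 levels were 4.99 to 12.8 (median 6.04) CPM in naive mice (n = 7), 9.97 to 18.7 (median 14.5) at day 12 (n = 7) and 8.09 to 15.3 (median 9.56) at day 28 (n = 7). Of the day 12 libraries, 6 of 8, 6 of 7 and 5 of 7 lay above every naive library at 3, 9 and 18 months, and the rest overlapped. The increase was 1.78-fold at 3 months (log2 0.83 ± 0.26, edgeR adjusted p = 0.0207), 1.97-fold at 9 months (log2 0.98 ± 0.30, adjusted p = 0.0154) and 2.13-fold at 18 months (log2 1.09 ± 0.27, adjusted p = 0.00303). Within the first and second collection days, the day 12 difference of Pgk1 was 1.23 and 0.78 at 3 months, 1.39 and 0.86 at 9 months and 0.47 and 1.55 at 18 months (log2). The call at 3 months was lost without the female naive replicate 2, the male naive replicate 1, the female day 12 replicate 1 or the male day 12 replicate 4 (adjusted p 0.051 to 0.0582), and the call at 9 months without the male naive replicate 1 (adjusted p 0.104).

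Pgam1 and Eno1 are the mutase and the enolase that prepare phosphoenolpyruvate, and of them only Eno1 passed at day 12, at 18 months. Pgam1 lay between 2.01 and 12.5 CPM over all libraries, with log2 differences at day 12 of 0.30 ± 0.35, 0.52 ± 0.40 and 0.76 ± 0.37 at 3, 9 and 18 months (edgeR adjusted p = 0.644, 0.398 and 0.159). Without the 18-month-old female naive replicate 1 the 18-month difference of Pgam1 was 1.19 and passed (adjusted p = 0.0275). By collection day (first, second), the day 12 difference of Pgam1 was 0.77 and 0.14 at 3 months, 1.31 and 0.12 at 9 months and 0.19 and 1.16 at 18 months (log2). At 3 months, Eno1 measured 82.8 to 181 (median 103) CPM in the 7 naive libraries, 71.7 to 201 (median 133) in the 8 day 12 libraries and 101 to 159 (median 120.1) in the 7 day 28 libraries. At 9 months, Eno1 measured 83.6, 141, 144, 185 and 189 CPM in the 5 naive libraries, 96.9 to 265 (median 179) in the 7 day 12 libraries and 114 to 201 (median 131) in the 7 day 28 libraries. At 18 months, Eno1 measured 82.8 to 204 (median 116) CPM in the 7 naive libraries, 167 to 285 (median 181) in the 7 day 12 libraries and 93.8 to 248 (median 118) in the 7 day 28 libraries. Eno1 overlapped between naive and day 12 at every age. At 18 months it was 1.66-fold higher (log2 0.73 ± 0.21, adjusted p = 0.0111), and the call was lost without the male day 12 replicate 2 (adjusted p 0.0695). At 3 and 9 months the difference of Eno1 was 0.37 ± 0.20 and 0.23 ± 0.23 (log2, adjusted p = 0.234 and 0.554). Taken within the first and then the second collection day, the day 12 change of Eno1 was 0.62 and 0.19 at 3 months, 0.78 and -0.17 at 9 months and 0.30 and 1.0 at 18 months (log2).

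Pkm, which yields pyruvate and the second ATP, was higher at all 3 ages. Pkm at 3 months gave 63.4 to 147 (median 86.1) CPM in naive retinas (n = 7), 144 to 269.8 (median 187) at day 12 (n = 8) and 71.7 to 130.0 (median 113) at day 28 (n = 7). Pkm at 9 months gave 58.9, 64.5, 72.9, 159 and 315 CPM in naive retinas (n = 5), 132 to 748 (median 268) at day 12 (n = 7) and 113 to 231 (median 123) at day 28 (n = 7). Pkm at 18 months gave 77.6 to 328 (median 92.9) CPM in naive retinas (n = 7), 155 to 344 (median 234) at day 12 (n = 7) and 112 to 244 (median 148) at day 28 (n = 7). Naive and day 12 libraries overlapped at each age, with 5 of 8, 3 of 7 and 1 of 7 day 12 libraries above every naive one, and the highest 18-month naive value came from female replicate 1, 1 of the 3 libraries with few genes. The day 12 level was 2.08-fold the naive level at 3 months (log2 1.06 ± 0.30, edgeR adjusted p = 0.00905), 2.87-fold at 9 months (log2 1.52 ± 0.35, adjusted p = 0.00133) and 1.86-fold at 18 months (log2 0.89 ± 0.31, adjusted p = 0.0386). Within the first and second collection days, the day 12 difference of Pkm was 1.30 and 0.89 at 3 months, 1.13 and 1.80 at 9 months and 0.27 and 1.37 at 18 months (log2). The 18-month call was the weakest, since it was lost in 9 of 14 fits that left out 1 library, namely those without the female naive replicates 2 and 3, the male naive replicates 1, 2 and 3, the female day 12 replicates 1, 3 and 4 or the male day 12 replicate 2 (adjusted p 0.0515 to 0.127), and with scaling by library totals (adjusted p = 0.121).

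Ldha, which makes lactate, was higher at 9 and 18 months. The 3-month-old Ldha levels were 88.6 to 196 (median 132) CPM in naive mice (n = 7), 108 to 298 (median 179.8) at day 12 (n = 8) and 127 to 180.3 (median 145) at day 28 (n = 7). The 9-month-old Ldha levels were 107, 150.1, 150.4, 160.4 and 161 CPM in naive mice (n = 5), 158 to 560.1 (median 307) at day 12 (n = 7) and 117 to 299 (median 142) at day 28 (n = 7). The 18-month-old Ldha levels were 109 to 409 (median 126) CPM in naive mice (n = 7), 171 to 451 (median 244) at day 12 (n = 7) and 138 to 249 (median 180.0) at day 28 (n = 7). At 9 months 6 of 7 day 12 libraries lay above all naive libraries, while at 18 months 1 of 7 did, the 18-month-old female naive replicate 1 standing at 409 CPM. The increase was 2.18-fold at 9 months (log2 1.13 ± 0.27, edgeR adjusted p = 0.00193) and 1.72-fold at 18 months (log2 0.78 ± 0.24, adjusted p = 0.0181), and the 3-month difference was 0.47 ± 0.23 (adjusted p = 0.176). By collection day (first, second), the day 12 difference of Ldha was 0.61 and 0.42 at 3 months, 1.08 and 1.11 at 9 months and -0.05 and 1.42 at 18 months (log2). At 18 months a higher level was thus measured in the libraries of the second collection day only. The first-day value rests in part on the female naive replicate 1 (409 CPM), the only naive female of that age and collection day. The call was lost without the female naive replicates 2 and 3 or the male day 12 replicate 2 (edgeR adjusted p 0.0736 to 0.115). Scaling by library totals also ended it (edgeR adjusted p = 0.0704).

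**Figure D2:**
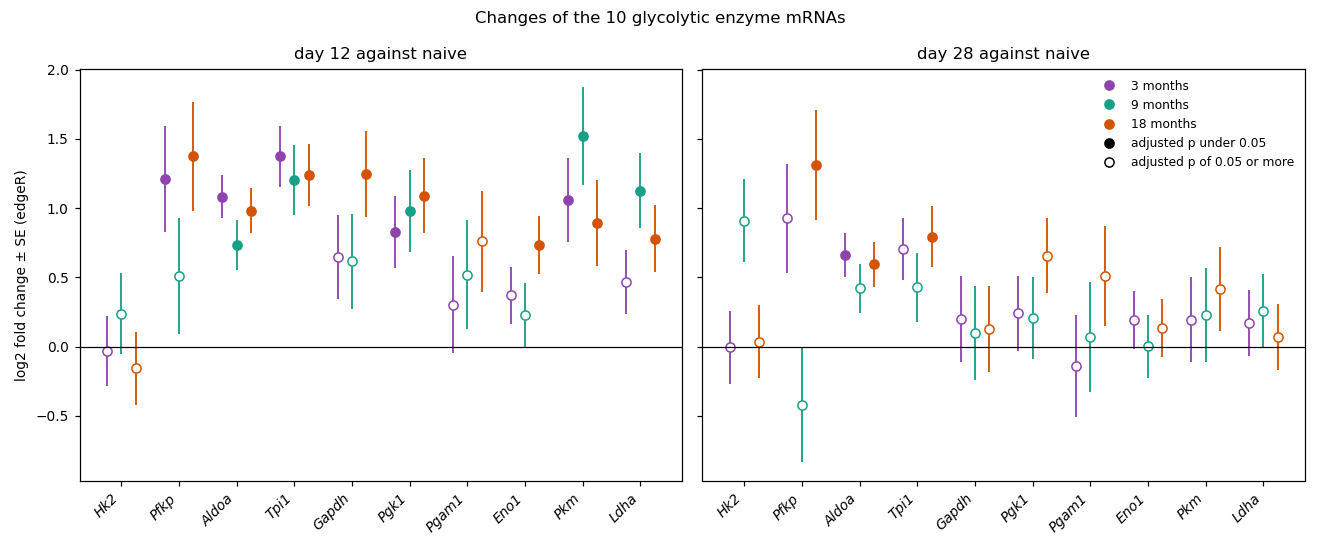
Log2 fold change with its standard error (y axis) of each enzyme (x axis) at day 12 and at day 28 against naive, by age (colours), with filled points where edgeR's adjusted p was under 0.05. At day 12 all enzymes but Hk2 and Pgam1 have at least 1 filled point, whereas at day 28 only Aldoa, Pfkp and Tpi1 have any.

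By day 28 little of this rise passed the test. Against the same naive libraries that served for day 12, 1 member was higher at 3 months, 0 at 9 months and 3 at 18 months, where 1.99%, 2.47% and 3.14% of all genes were. The median member stood 0.20, 0.22 and 0.46 above naive on the log2 scale, against -0.01, 0.04 and 0.02 over all genes. Aldoa, the aldolase, passed at 2 ages. It was 1.58-fold higher at 3 months (log2 0.66 ± 0.16, edgeR adjusted p = 0.00985) and 1.51-fold at 18 months (log2 0.59 ± 0.16, adjusted p = 0.0172), with 6 of 7 and 4 of 7 day 28 libraries above every naive one. Tpi1 was 1.73-fold higher at 18 months (log2 0.79 ± 0.22, adjusted p = 0.0223). Pfkp was 2.48-fold higher at 18 months (log2 1.31 ± 0.39, adjusted p = 0.0365). At 9 months 2 members had an unadjusted p under 0.05, as did 2463 of 13584 genes. DESeq2 called 1 member and 878 genes over all. Hk2 was the member with the lowest adjusted p at 9 months, at 1.88-fold naive (log2 0.91 ± 0.30, adjusted p = 0.0691), and it passed without the female naive replicate 2 or the male naive replicate 1 (adjusted p 0.0241 to 0.0476). The day 28 difference of Hk2 within the first and second collection days was 1.04 and 1.23 at 9 months (log2). It was -0.02 and 0.20 at 3 months and 1.04 and -0.47 at 18 months.

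Each of the 18-month calls at day 28 was lost without single libraries. Pfkp was lost in 9 of 14 fits that left out 1 library (adjusted p 0.0506 to 0.136), namely those without the female naive replicates 1 and 3, the male naive replicates 1, 2 and 4, the female day 28 replicates 3 and 4 or the male day 28 replicates 3 and 4. Scaling by library totals also ended the call of Pfkp (adjusted p = 0.0687). Tpi1 was lost without the female naive replicate 3, the male naive replicate 2, the female day 28 replicate 4 or the male day 28 replicate 4 (adjusted p 0.0518 to 0.0797), and Aldoa without the female naive replicate 3 or the female day 28 replicate 4 (adjusted p 0.0541 to 0.0605). Pgk1 gained a call without the female naive replicate 1 (adjusted p = 0.0492), and at 3 months Tpi1 gained one without the female naive replicate 4 (adjusted p = 0.0181). The library with 2 day labels was among those left out, and without it Pfkp had an adjusted p of 0.0856 and Tpi1 of 0.0509, so that Aldoa alone was called. Within the first and second collection days the day 28 difference at 18 months was 0.29 and 0.80 for Aldoa, 0.59 and 0.94 for Tpi1 and 1.70 and 1.41 for Pfkp, and that of Aldoa at 3 months was 0.60 and 0.72 (log2). Of the marker genes at day 28, 1, 3 and 3 of 8 microglia genes were lower, 3, 6 and 4 of 7 T cell genes were higher and 0 of 6 genes of dividing cells were higher at 3, 9 and 18 months. Over all genes 107, 207 and 228 of 13584 were lower at day 28. Of 7 genes of Müller glia and astrocytes 2, 1 and 2 were higher, and the median summed level of that list was 6049, 7473 and 6866 CPM in naive and 27949, 20452 and 38049 CPM in day 28 libraries, of which Apoe made up 27556, 19941 and 37711 CPM (median). At 18 months 2 of 12 photoreceptor genes were higher. The part of these cells in the day 28 values was not tested.

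Set directly against day 12, the fall to day 28 passed for 0 members at 3 months, 3 at 9 months and 1 at 18 months, where 1.44%, 5.22% and 2.32% of all genes were lower. At 3 months 4 members had an unadjusted p under 0.05, as did 2162 of 13584 genes. DESeq2 called 1 member and 588 genes over all. The enzymes at the end of the pathway fell at 9 months. Pkm fell by 1.29 on the log2 scale (SE 0.31, edgeR adjusted p = 0.00425), from a median of 268 to 123 CPM. Ldha fell by 0.87 (SE 0.24, adjusted p = 0.0136), from 307 to 142 CPM, and Tpi1 fell by 0.77 (SE 0.22, adjusted p = 0.0181), from 269.7 to 154 CPM. All 3 overlapped between the days. At 18 months Gapdh fell by 1.12 (SE 0.31, adjusted p = 0.0305), from 27.6 to 11.4 CPM. The Pkm libraries of 3-month-old mice did not overlap, at 144 to 269.8 CPM at day 12 and 71.7 to 130.0 at day 28, which held for 1.94% of all genes in either direction, although the log2 difference of -0.87 ± 0.30 had an adjusted p of 0.111. Within the first and second collection days the 9-month falls were -1.41 and -1.09 for Pkm, -1.31 and -0.68 for Ldha and -1.01 and -0.80 for Tpi1, and that of Gapdh at 18 months was -1.02 and -1.18 (log2). The call of Tpi1 was lost without the female day 12 replicate 1 or the male day 28 replicate 3 (adjusted p 0.0752 to 0.0933), that of Ldha without the male day 12 replicate 1 or the male day 28 replicate 3 (adjusted p 0.0668 to 0.075), and that of Gapdh in 8 of 14 fits, namely without the female day 12 replicates 3 and 4, the male day 12 replicate 2, the female day 28 replicates 2 and 3 or the male day 28 replicates 1, 2 and 3 (adjusted p 0.054 to 0.162). At 9 months Pgk1 was instead gained without the male day 12 replicate 2 or the male day 28 replicate 2 (adjusted p 0.0267 to 0.0382), and at 18 months Eno1 without the male day 28 replicate 4 (adjusted p = 0.0235) and Ldha without the female day 12 replicate 2 (adjusted p = 0.0471).

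Age was compared within each day at an adjusted p under 0.1, the threshold the study uses between ages. Among naive and among day 28 libraries 0 members passed between 9 or 18 and 3 months. The background was 0% and 0.11% of all genes in naive mice and 0% and 0.0442% at day 28, at 9 and 18 months. In naive mice 2 and 1 members had an unadjusted p under 0.05 at 9 and 18 months (675 and 1010 of 13584 genes), and DESeq2 called 0 members in both. At day 28 the counts were 0 and 1 unadjusted (479 and 631 of all genes) and 0 by DESeq2. At day 12, 2 of 10 members were higher at 9 than at 3 months, where 1.2% of all genes were (1.64% in either direction). These were Pkm (log2 1.0 ± 0.29, edgeR adjusted p = 0.0895) and Ldha (log2 0.81 ± 0.23, adjusted p = 0.0697), whose values overlapped between the ages. Single libraries ended both calls, Pkm being lost in 10 of 15 and Ldha in 8 of 15 fits that left out 1 library (adjusted p 0.105 to 0.454 and 0.115 to 0.311), with the highest value in each case without the 9-month-old male day 12 replicate 1. Leaving out the 3-month-old female day 12 replicates 1, 2 and 4, the 3-month-old male day 12 replicates 1, 2, 3 and 4, the 9-month-old female day 12 replicates 2 and 3 or the 9-month-old male day 12 replicate 1 ended the call of Pkm. The call of Ldha ended without the 3-month-old female day 12 replicates 3 and 4, the 3-month-old male day 12 replicates 1, 3 and 4, the 9-month-old female day 12 replicates 2 and 3 or the 9-month-old male day 12 replicate 1. Between 18 and 3 months at day 12, 0 members passed in edgeR (all genes 1.97%). An unadjusted p under 0.05 was reached by 3 members (1826 of all genes), and DESeq2 called 1 (530 of all genes). The change from naive itself was not shown to differ between ages for any member, where 0.0368% and 0.155% of all genes at day 12 and 0% at day 28 passed for 9 and 18 against 3 months. At day 12 the counts at an unadjusted p under 0.05 were 0 and 0 (833 and 1497 of all genes), and DESeq2 called 0 members at either day. The largest difference at day 12 between 18 and 3 months was that of Gapdh (log2 0.60 ± 0.43, adjusted p = 0.658), and between 9 and 3 months that of Pfkp (-0.70 ± 0.56, adjusted p = 0.966). At day 28 2 members had an unadjusted p under 0.05 between 9 and 3 months, as did 579 of 13584 genes. These were Hk2 (0.91 ± 0.40) and Pfkp (-1.35 ± 0.57), both with an edgeR adjusted p of 0.9999.

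The sexes were compared by the difference of their changes from naive, and 0 members passed at any age or day by edgeR or by DESeq2, where at most 0.00736% of all genes did. At 3 months the day 12 changes of the 10 enzymes were larger in males in 9 of 10. An unadjusted p under 0.05 was reached by 4 members and by 760 of 13584 genes. Tpi1 changed by 2.05 ± 0.34 in males (adjusted p = 2.17e-05) and 0.70 ± 0.29 in females (adjusted p = 0.141), a log2 difference of 1.35 ± 0.43 with an edgeR adjusted p of 0.872. Tpi1 at 3 months gave 48.1 to 88.5 CPM in naive and 225 to 346 CPM in day 12 males, and 65.6 to 191 and 146 to 219.8 CPM in females, and the naive ranges of the sexes overlapped. Gapdh (1.42 ± 0.60), Eno1 (1.17 ± 0.41) and Aldoa (0.70 ± 0.31) were the other 3, with the same adjusted p. At 9 months the differences between the sexes ran from -0.22 to 0.74, with 0 members at an unadjusted p under 0.05 (918 of all genes). The naive males of that age numbered only 2. At 18 months they ran from -0.89 for Hk2 to 1.22 for Gapdh, with 8 of 10 larger in males (5 of 10 at 9 months). Again 0 had an unadjusted p under 0.05 (1141 of 13584 genes). The female replicate 1 was the highest 18-month naive library for Aldoa, Tpi1, Gapdh, Pgk1, Pgam1, Eno1, Pkm and Ldha. It was the lowest for Hk2 and Pfkp, and its part in these differences was not tested. Within each sex, 5, 0 and 7 members were called at day 12 in males and 1, 4 and 1 in females at 3, 9 and 18 months. In females 1000 of all genes were called at 3 months and 474 at 18 months, against 2261 and 2113 with both sexes averaged. Calls over all genes thus differed between the contrasts in females and those with both sexes averaged. No count over all genes is given here for males at day 12 or for 9-month-old females. The 5, 0 and 7 members called in males thus have no matching background. The member counts alone do not show a difference between the sexes. At day 28 the change was larger in males in 8, 6 and 8 of 10 members at 3, 9 and 18 months. The counts at an unadjusted p under 0.05 were 1, 0 and 0 (415, 955 and 832 of all genes).

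Hk2 also ran apart from the other 9 enzymes from library to library. Its levels fell in 2 ranges, 98.6 to 156 CPM in 7 libraries and 232 to 791 CPM in the other 55, a limit chosen after the values were seen. The 7 comprised 4 naive, 2 day 12 and 1 day 28 libraries, and 3 of them were collected on the first day and 4 on the second. Among them were 2 of the 3 libraries with few genes and the library with 2 day labels. The summed level of dissociation response genes was 138, 262, 267, 334, 359, 502 and 575 CPM in the 7, where the medians of the 9 groups of age and day were 196 to 257 CPM. Their part in the low values was not tested. Over the 62 libraries, Pearson's r of the log2 level of Hk2 with that of each other member lay between -0.48 and -0.13, and within groups of age, sex and day between -0.62 and -0.22. Among the other 9 members, all 36 pairs had a positive r, from 0.24 to 0.90, and 34 of 36 did within groups. These values describe the libraries and carry no test, since the genes of 1 library share its depth, its scaling and its batch correction, which moved Hk2 the other way.

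**Figure D3:**
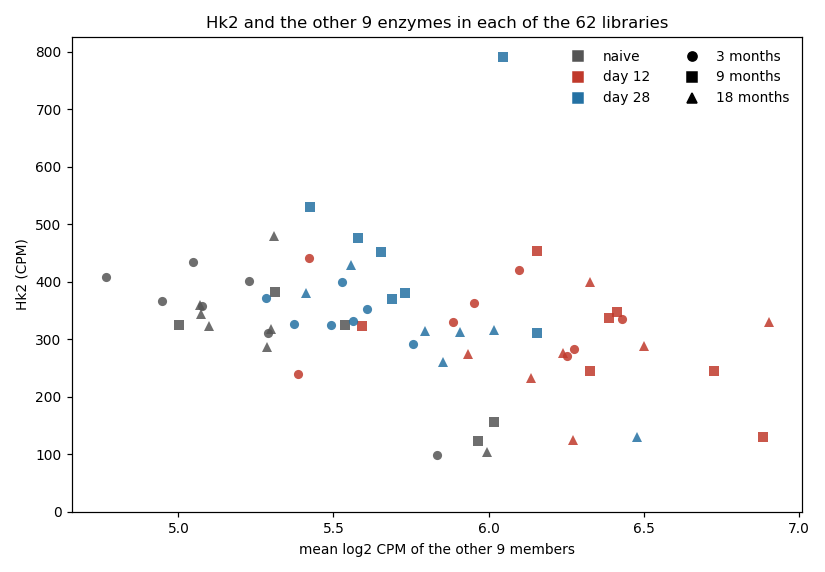
Level of Hk2 in CPM (y axis) against the mean log2 CPM of the other 9 enzymes (x axis), 1 point for each of the 62 libraries, coloured by day and shaped by age. Day 12 libraries lie to the right of most naive ones without lying higher, and 7 libraries have Hk2 at 156.1 CPM or lower.

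The other isoenzymes of these steps were counted in the same way. Of 19 isoenzymes and missing steps of the pathway, 13 were tested, and 2, 1 and 2 were higher and 0, 1 and 1 lower at day 12 at 3, 9 and 18 months, where 9.42%, 10.5% and 9.53% of all genes were higher, with a median log2 fold change of 0.14, -0.10 and 0.39. Hk3, the hexokinase of myeloid cells, rose at all 3 ages, from 28.1 ± 4.69 CPM (mean ± SD, n = 7) to 55.2 ± 20.7 (n = 8) at 3 months (log2 0.98 ± 0.28, edgeR adjusted p = 0.00907), by 1.39 ± 0.32 at 9 months (adjusted p = 0.0013) and by 0.91 ± 0.29 at 18 months (adjusted p = 0.0228). Gpi1, the isomerase between the hexokinase and phosphofructokinase steps, rose by 1.06 ± 0.19 at 3 months (adjusted p = 4.43e-05) and 0.93 ± 0.20 at 18 months (adjusted p = 0.000599). Eno3, the muscle enolase, went the other way, with a log2 fold change of -1.17 ± 0.36 at 9 months (adjusted p = 0.0176) and -1.83 ± 0.35 at 18 months (adjusted p = 8.85e-05).

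The transporters showed the largest changes around the pathway, in opposite directions. Slc2a5, a fructose transporter used as a microglia marker, stood at 338 ± 129.9 CPM in naive mice (mean ± SD, n = 7) and 39.2 ± 15 at day 12 (n = 8) at 3 months, 441 ± 150.4 (n = 5) and 60.3 ± 42.1 (n = 7) at 9 months, and 404 ± 98.6 and 92 ± 91.7 (n = 7 each) at 18 months. Its log2 fold change was -3.04 ± 0.35 (edgeR adjusted p = 2.02e-09), -3.01 ± 0.39 (adjusted p = 4.52e-08) and -2.51 ± 0.36 (adjusted p = 6.2e-07). Slc2a6, a lysosomal hexose transporter of macrophages, rose at each age, from 12.1 ± 2.35 to 47.6 ± 19 CPM, from 7.9 ± 5.26 to 109.7 ± 70.9 and from 13.3 ± 13.3 to 61 ± 25.8. Its log2 fold change was 1.94 ± 0.41 (adjusted p = 0.000353), 3.79 ± 0.53 (adjusted p = 2.56e-07) and 2.26 ± 0.42 (adjusted p = 7.94e-05). Slc16a7, a monocarboxylate carrier with high affinity for pyruvate and lactate, fell, with log2 fold changes of -1.67 ± 0.30, -1.98 ± 0.33 and -1.54 ± 0.31 (adjusted p = 2.21e-05, 8.57e-06 and 0.000223). Slc2a8 was lower at 18 months (-1.06 ± 0.32, adjusted p = 0.0155). In all, 1, 1 and 1 of 9 tested transporter genes were higher and 2, 2 and 3 lower, with a median of -0.04, -0.11 and -0.34. Over all genes 982, 1075 and 818 of 13584 were lower.

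Among 14 regulators tested, 1, 2 and 1 were higher and 2, 2 and 2 lower at day 12. Hif1a rose from 118 ± 37.4 (n = 7) to 239.6 ± 40.8 CPM (n = 8) at 3 months (log2 1.05 ± 0.20, edgeR adjusted p = 5.93e-05) and from 98.2 ± 55.3 (n = 5) to 243 ± 51.6 CPM (n = 7) at 9 months (1.30 ± 0.23, adjusted p = 2.56e-05), and its 18-month difference was 0.49 ± 0.20 (adjusted p = 0.0929). Txnip, which restrains glucose uptake, fell by 0.65 ± 0.19 (adjusted p = 0.0139), 1.25 ± 0.22 (adjusted p = 2.4e-05) and 0.80 ± 0.20 (adjusted p = 0.00359) on the log2 scale. Myc fell by 2.26 ± 0.35 at 3 months (adjusted p = 1.67e-06) and 1.54 ± 0.38 at 9 months (adjusted p = 0.00237), and its 18-month difference was -0.46 ± 0.35 (adjusted p = 0.428). Pdk3, which slows pyruvate dehydrogenase, rose at 18 months (1.02 ± 0.28, adjusted p = 0.00685), and Pfkfb3, which makes an activator of phosphofructokinase, fell by 0.48 ± 0.17 there (adjusted p = 0.0432). Pfkfb1 was called at 9 months (adjusted p = 0.0105) at a few counts only, 0.21 ± 0.35 CPM in naive and 2.71 ± 1.65 CPM in day 12 mice. The median regulator stood at -0.09, -0.10 and 0.11. HIF-1 targets outside glycolysis are read against the same shares of all genes. Of 17 listed names, 16 were in the table (Ero1a is another name of Ero1l), and 1, 2 and 1 were higher and 0, 0 and 1 lower, with a median of 0.39, 0.18 and 0.26. Ero1l, an endoplasmic reticulum oxidase, was higher at all 3 ages (log2 0.99 ± 0.34, 1.70 ± 0.41 and 2.30 ± 0.37, adjusted p = 0.0379, 0.002 and 5.78e-06). Car9, a carbonic anhydrase, was higher at 9 months (1.86 ± 0.56, adjusted p = 0.0143), and Bnip3l, a mitophagy receptor, was lower at 18 months (-0.48 ± 0.17, adjusted p = 0.0468).

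**Figure D4:**
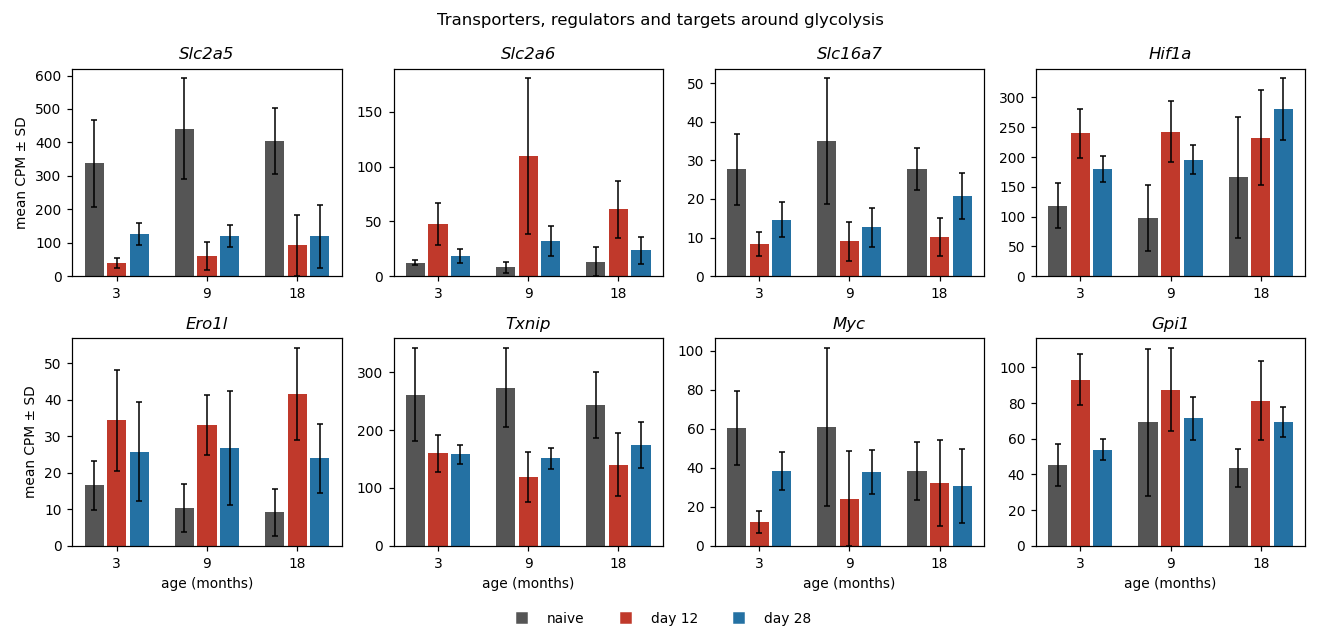
Mean CPM with its SD (y axis, lower error bars stopped at 0) of 8 genes around glycolysis by age in months (x axis) and day (colours). Slc2a5, Slc16a7 and Txnip are lower and Slc2a6 and Ero1l higher at day 12 than in naive retinas at each age, and the Myc, Hif1a and Gpi1 bars are closer at some ages.

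Genes of neighbouring routes were counted in the same way. The 8 genes of pyruvate entry into mitochondria gave 0 calls at every age at day 12 in edgeR and 0, 0 and 1 by DESeq2. Their median was -0.12, -0.21 and 0.22 at 3, 9 and 18 months. Of them 0, 2 and 2 had an unadjusted p under 0.05, as did 3778, 4177 and 3822 of 13584 genes. In the pentose phosphate pathway 1, 0 and 1 of 7 genes were higher (median 0.23, 0.38 and 0.29), Pgls at 3 months (0.50 ± 0.16, adjusted p = 0.0208) and Taldo1 at 18 months (0.52 ± 0.18, adjusted p = 0.0447). Of 8 genes of glycogen and gluconeogenesis 2, 3 and 1 were higher and 0, 1 and 0 lower, with a median of 0.28, 0.04 and 0.04. Pgm1, which joins glycogen to glycolysis, was higher at all 3 ages (0.86 ± 0.31, 1.16 ± 0.36 and 1.14 ± 0.32, adjusted p = 0.0458, 0.0158 and 0.00934). Pygl, a glycogen phosphorylase, was higher at 3 and 9 months (1.32 ± 0.42 and 1.48 ± 0.49, adjusted p = 0.0199 and 0.0271). Gbe1, the branching enzyme, was lower at 9 months (-1.49 ± 0.43, adjusted p = 0.0103), and Gys1 was called higher there (adjusted p = 0.0429) at 4.64 ± 8.12 CPM in naive and 6.71 ± 3.63 CPM in day 12 mice, whose SDs exceed the difference of the means. At day 28, against the shared naive libraries, Slc2a5 was still lower at all 3 ages (-1.38 ± 0.35, -1.88 ± 0.37 and -1.89 ± 0.35, adjusted p = 0.0141, 0.00112 and 0.000261). Hif1a was higher at 9 and 18 months (0.98 ± 0.23 and 0.78 ± 0.20, adjusted p = 0.00593 and 0.0122), as was Ero1l (1.32 ± 0.41 and 1.43 ± 0.37, adjusted p = 0.0485 and 0.011). At 9 months Slc2a6 was higher (1.89 ± 0.48, adjusted p = 0.0144) and Slc16a7, Txnip and Pygb lower (-1.50 ± 0.32, -0.89 ± 0.22 and -1.83 ± 0.43, adjusted p = 0.00283, 0.00977 and 0.00656). At 18 months Gpi1 and Pygl were higher (0.69 ± 0.20 and 1.74 ± 0.44, adjusted p = 0.0281 and 0.0091) and Eno3 lower (-1.27 ± 0.34, adjusted p = 0.015).

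**Figure D5:**
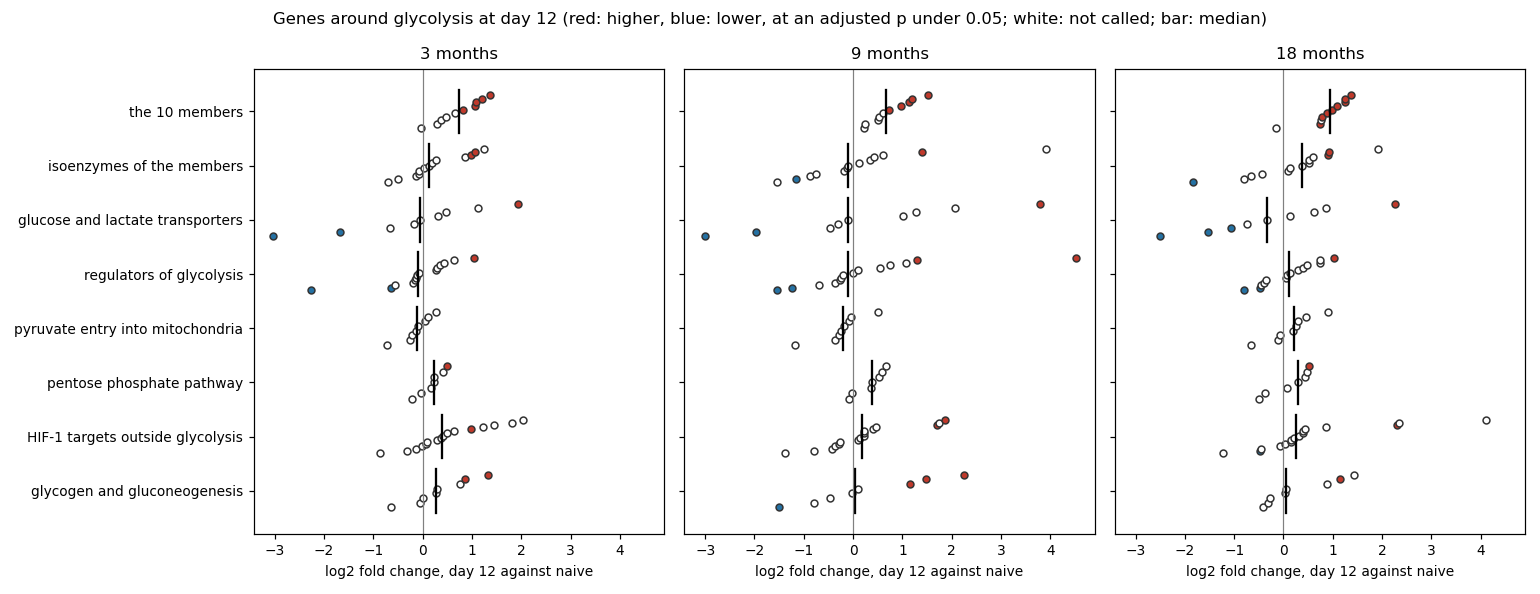
Log2 fold change at day 12 against naive (x axis) of every tested gene of the 10 members and of 7 gene lists around them (rows), 1 panel for each age, with red and blue points past an adjusted p of 0.05, white points not past it and a bar at the median. The bar of the 10 members stands at 0.74, 0.68 and 0.94, and those of the other lists lie between -0.34 and 0.39.

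The genes whose level over the 62 libraries was most like the mean of the 10 enzymes (standardised log2 CPM, Pearson's r) were Akr1a1, an aldehyde reductase (r = 0.90), Tmem106a (0.87), Slc31a2, a copper transporter (0.87), Oas1a, an interferon-induced gene (0.87), and H2-T23, a nonclassical class I histocompatibility gene (0.86). The least alike were the transcription factor genes Mef2a (-0.89) and Maf (-0.87). The points are libraries of different days and ages whose genes share depth and scaling, and r carries no test. Akr1a1 measured 317 to 580.3 CPM in naive and 621 to 1165 CPM in day 12 libraries at 3 months, which did not overlap. Its log2 fold change at day 12 was 1.02, 0.84 and 1.11 at 3, 9 and 18 months, against -1.26, -1.62 and -1.68 for Maf.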

How the data were processed

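Per the study's methods and the submitters' processing notes, the authors amplified the RNA of 600 sorted cells per retina with SMART-Seq v4 (16 PCR cycles), made Nextera XT libraries, read 75-nt single ends on a NextSeq 500 (bcl2fastq 2.20), aligned them with STAR 2.7.8a to mm10 and counted reads per UCSC refGene gene with featureCounts. They then corrected the counts for 2 collection days with ComBat_seq (R 4.2.2), and the deposited values used here are these corrected counts per gene. The study's methods name no step that collapses PCR copies, and the kit does not mark strand. The uncorrected counts, also deposited, served as an alternative.

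Of the 64 libraries of the series, the 9-month-old male day 28 replicate 1 had uncorrected counts only and entered no fit. Of the 63 with corrected counts, A07 (18-month-old female day 28 replicate 1) was left out, as in the definition of the gene set. The 10 members and the gene lists were chosen with earlier results of these data known. Genes were filtered by filterByExpr over 18 groups of age, sex and day, scaled by TMM and tested in 1 quasi-likelihood fit (edgeR 4.0.16, R 4.3.3), with contrasts averaged over the sexes, log2 fold changes with standard errors and 95% intervals, and Benjamini-Hochberg adjustment over 13584 genes at 0.05 (naive, days) or 0.1 (ages, differences of changes). The scripts were tested on simulated data. Of 100 genes changed by 1 on the log2 scale, 35%, 22% and 34% were called at day 12 at 3, 9 and 18 months. Of 100 changed by 0.7, 14%, 4% and 17% were called. Only these genes among 12753 were changed in the simulation, a smaller share than was called at day 12 in the data. The adjustment over all genes was therefore not alike, and these rates need not hold for the data. Within-day values come from the same fit with collection day added to the groups. Leaving out a library kept the filter and dispersion trend and refitted scaling and spread. Alternatives were DESeq2 1.42.0, glmTreat against a log2 fold change of 1, other scalings, no filter, uncorrected counts and a replicate block. Separate fits by age, contrasts within each sex and fits without doubted libraries were also run. The contrasts within each sex came from the main fit, with its scaling and spread shared by both sexes. Those without the libraries of few genes or of 2 day labels and within collection days were added after the data were seen. Of 79 pairs of libraries within a group 0 were identical. Promoters and gene positions are from RefSeq GRCm38.p6 and shared 75-base stretches from GENCODE transcripts. Other genes were named by a rule, up to 5 per list with the smallest adjusted p among those past the threshold in a comparison with naive, plus the 5 genes most and the 2 least correlated with the members. Depth was 1468478 to 9836173 counts, so that 3 counts, taken as the floor, correspond to 0.361 to 2.12 CPM. Python 3.11.15, numpy 2.4.6, pandas 2.3.3 and matplotlib 3.10.9 were used for the figures and summaries.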

Additional observations from a re-analysis of the deposited data

Results flagged for a closer look

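In 14 of 90 groups of a member, an age and a day, 1 library lay further from the rest than the 95% limit of Dixon's test allows, a limit that chance passes in about 1 of 20 groups. Of these, 7 came from 1 library, the 18-month-old female naive replicate 1, which was also 1 of the 3 libraries with few genes. It was the highest of the 7 naive libraries of its age for Aldoa (616.2 CPM, next 445.6), Gapdh (26.4, next 12.7), Pgk1 (12.8, next 6.81), Pgam1 (10.7, next 5.24), Eno1 (203.9, next 122), Pkm (328.1, next 130.2) and Ldha (408.6, next 146.9). Its summed levels of monocyte and neutrophil genes (141.6 CPM) and of dissociation response genes (502.3 CPM, next 358.9) were the highest of all naive libraries, and those of photoreceptor genes (914.2 CPM) and B cell genes (7.43 CPM) the lowest, and their part in its values was not tested. Without it Pgam1 also passed at day 12 at 18 months, as given above.

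The 9-month-old female day 28 replicate 4 was high for Gapdh (22.1 CPM, next 15.5) and Pgam1 (9.95, next 5.86). The 18-month-old male day 28 replicate 4, the library with 2 day labels, was high for Eno1 (247.8 CPM, next 155.4) and Ldha (249.3, next 182.3). Low values were those of Hk2 in the 3-month-old female naive replicate 4 (98.6 CPM, next 311), Gapdh in the 9-month-old male naive replicate 1 (9.36, next 14.1) and Ldha in the 9-month-old female naive replicate 2 (106.7, next 150.1).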

How the results depend on the processing

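Counts of members called are given, with the genes called over all genes in brackets where given. In the main fit these were 2261, 2495 and 2113 at day 12 and 377, 543 and 655 at day 28, at 3, 9 and 18 months. Between day 28 and day 12 they were 378, 1267 and 381. At day 12 they were 223 for 9 and 268 for 18 against 3 months. DESeq2 called 2 (554) at day 28 at 3 months and 1 (878) at 9 months. It called 1 (588) for day 28 against day 12 at 3 months and 1 (530) for 18 against 3 months at day 12. With no filter these 4 counts were 2 (662), 1 (875), 2 (670) and 1 (580). It gave 2 (653) for day 28 against day 12 at 18 months and 1 (70) for 9 against 3 months in naive mice. A test against a log2 fold change of 1 (glmTreat) called 0 in each comparison with naive or between days that had calls. Over all genes it called 455, 562 and 443 at day 12 at 3, 9 and 18 months. It called 67 and 106 at day 28 (3 and 18 months) and 46 and 26 for the falls (9 and 18 months). At day 12, females alone gave 1 (1000), 4 and 1 (474) and males alone 5, 0 and 7 at 3, 9 and 18 months. At day 28 females gave 0 at each age and males 0, 0 and 2. Over all genes 107 were called in 3-month and 190 in 18-month females and 73 in 3-month males. The falls between days at 9 and 18 months gave 1 (433) and 0 (0) in females and 0 (52) and 0 (192) in males. Uncorrected counts with no batch term gave 5 (1496) at day 12 at 18 months and 0 at day 28 at 3 (223) and 18 months (441). They gave 0 (178) for the fall at 18 months. For 9 against 3 months at day 12 they gave 0 (62), which was 1 (212) with collection day in the model. Separate fits by age gave 2 (776) at day 28 and 2 (873) for the fall at 3 months, and 0 for the falls at 9 (718) and 18 months (114). Scaling by library totals gave 1 (403) for the fall at 3 months (Tpi1) and added Pgk1 to the fall at 9 months (adjusted p = 0.0386 in edgeR). It ended the 18-month calls of Pkm and Ldha at day 12 and Pfkp at day 28 given above. With A07 put back the fall at 18 months had 0 members, and the calls over all genes went from 381 to 12. With the library of 2 day labels at day 12, or left out, day 28 at 18 months had 1 (624 and 678) and the fall 2 (313 and 453). In the former, 18 against 3 months at day 12 had 1 (564), and in the latter day 28 at 9 months had 1 (605). Without the 3 libraries of few genes, the fall at 18 months had 2 (599) and 18 against 3 months at day 12 had 1 (401). The cause of these shifts was not tested.

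Leaving out 1 library gave 3 to 5, 4 to 5 and 4 to 9 at day 12 (3, 9 and 18 months), 1 to 2, 0 to 1 and 0 to 3 at day 28, 1 to 4 and 0 to 2 for the falls at 9 and 18 months, and 0 to 2 and 0 to 1 for 9 and 18 against 3 months at day 12. Of 1736 values of single members under an alternative, 132 lost and 32 gained a call. Of those called in either fit, 1 changed sign, Ldha at day 12 at 18 months within the first collection day (-0.055). There the naive females were the female replicate 1 only. On uncorrected counts the mean Hk2 level at 9 months and day 28 was 651.9 CPM, against 472.8 ± 158.2 CPM (mean ± SD) on corrected counts.

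With the replicate number as a block, the fall at 18 months had 2 members (412 of all genes) and 18 against 3 months at day 12 had 1 (327). Pfkp at day 28 at 18 months was lost (edgeR adjusted p = 0.0543). The deviations of libraries with the same number correlated by -0.0088 on average (464 pairs) and those with other numbers by 0.0042 (1348 pairs), so the numbers were not taken as pairs.

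Library totals in place of TMM moved the median log2 fold change of all genes to -0.11 and -0.12 at day 12 at 3 and 18 months, -0.14 at day 28 at 3 months and -0.11 for the fall at 9 months. The share of calls over all genes that were higher went from 56.6% to 44.4% and 61.3% to 45.5% at day 12 (3 and 18 months), from 71.6% to 57.1%, 61.9% to 49.5% and 65.2% to 52.4% at day 28 (3, 9 and 18 months), and from 44.0% to 33.8% for the fall at 9 months. Members called kept their direction. Pfkp, Gapdh, Pgk1 and Pgam1 rest on medians of 22.5 to 59 counts.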
